A study of Mus musculus with 4 samples.

Results

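The gene models described here are 110 microRNA genes that were counted in RNA immunoprecipitation libraries from adult mouse testis. Of 50600 gene models in each library, 1185 carry a microRNA name and 118 of these held 20 or more estimated counts summed over the 4 libraries. 8 of the 118 were left out by name, which leaves 110. The names left out are those of the miR-34/449 family and the miR-17-92 cluster, together with Mir127, Mir5117, Mir6236 and Mir6240. The models were chosen by their summed count, so their abundance is a description and not a finding. The sum weighs both antibodies together, but a model that is high with one antibody reaches it more easily than a model that is low with both.

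RNA was precipitated from testis lysates of C57BL/6 mice aged 8 weeks, in 2 libraries with a commercial antibody to LARP7 and in 2 libraries with IgG. All 4 libraries came from tissue lysed in 150 mM NaCl, held for 4 h on antibody-coated beads and washed in 500 mM NaCl, and were selected for RNAs of 15 to 300 nt in a small RNA library protocol. The series describes the replicates as biological, and the labels do not say whether they came from separate animals. No library of unprecipitated RNA was used here, so a level below is an amount recovered with an antibody and not the amount in the tissue.

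A microRNA gene is transcribed as a long primary RNA, from which Drosha and Dgcr8 cut a hairpin that Xpo5 and Ran carry out of the nucleus and Dicer1 trims to a short mature strand. An Argonaute protein holds that strand, which finds its target mRNAs mainly through the seed near its 5′ end, so microRNAs that share a seed form a family. LARP7 is a La-related protein best known for holding the 3′ end of the small nuclear RNA 7SK and for its part in the modification of the spliceosomal RNA U6.

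The seed families that recur below are shown by their mature strands, taken from RefSeq (GRCm38.p6) and written 5′ to 3′ with the seed, bases 2 to 8, in capitals. RefSeq held a microRNA entry for 102 of the 110 models. The let-7 strands share one seed and differ from each other outside it.
let-7a-5p (Mirlet7a-1): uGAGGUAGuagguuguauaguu
let-7b-5p (Mirlet7b): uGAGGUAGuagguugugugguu
let-7c-5p (Mirlet7c-1 and Mirlet7c-2): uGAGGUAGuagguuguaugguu
let-7g-5p (Mirlet7g): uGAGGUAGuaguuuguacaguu
let-7i-5p (Mirlet7i): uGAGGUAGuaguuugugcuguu
The miR-30 and miR-103 strands are shown because their models had the larger differences between antibodies.
miR-30a-5p (Mir30a): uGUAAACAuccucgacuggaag
miR-30c-5p (Mir30c-1 and Mir30c-2): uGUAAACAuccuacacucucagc
miR-30e-5p (Mir30e): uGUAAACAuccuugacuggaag
miR-103-3p (Mir103-1 and Mir103-2): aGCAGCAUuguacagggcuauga
The miR-125 seed joins a conserved microRNA to miR-351, which lies on the X chromosome.
miR-125a-5p (Mir125a): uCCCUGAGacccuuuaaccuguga
miR-351-5p (Mir351): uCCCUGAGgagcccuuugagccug
miR-465 stands for a block of X-linked microRNAs, and its 3p strand is the same in the entries of 4 models.
miR-465b-3p (Mir465b-1 and Mir465b-2): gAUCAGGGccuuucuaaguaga

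A read can tell some of these genes apart only outside the mature strand, as the hairpins of the miR-103 pair show. Here the mature arms are in capitals and the rest of the RefSeq hairpin in lower case. 69 of 86 aligned bases are the same in the pair (80.2%).
Mir103-1: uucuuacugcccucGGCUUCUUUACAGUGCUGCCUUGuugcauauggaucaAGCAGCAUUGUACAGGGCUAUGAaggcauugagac
Mir103-2: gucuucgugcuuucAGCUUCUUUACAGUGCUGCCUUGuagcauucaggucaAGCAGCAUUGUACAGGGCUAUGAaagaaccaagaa
The authors' values count reads per model and do not say whether a read came from a mature strand, a hairpin or a longer transcript, so "model" is used below for what was counted.

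The libraries held 6918040 and 6502682 estimated counts with LARP7, against 6994514 and 4411271 with IgG. The 110 models took 0.180% and 0.333% of the counts in the LARP7 libraries, against 0.0853% and 0.104% in the IgG libraries. Both LARP7 shares lay above both IgG shares, and the second LARP7 library stood apart from the first by more than the IgG libraries did from each other. With the deposited TPM, which divides each count by the effective length of its model, the shares were 0.332% and 0.862% with LARP7, against 0.471% and 0.513% with IgG, and these overlapped. The mean fragment implied by the effective lengths was 61.8 to 65.8 nt, and 8 to 14 of the models were shorter, depending on the library. The smallest effective length was 4.61 nt, so TPM of the shortest models rests on a small divisor. Summed levels of 9 germ cell markers were 656 and 405 CPM with LARP7, against 1391 and 1284 CPM with IgG, where CPM is the count scaled to a common library size with TMM (the trimmed mean of log ratios between libraries). By the test used below 2 of these 9 markers were lower with LARP7, where 9.69% of all genes tested were lower, and none was higher. By library totals 8 of the 9 were lower, against 47.1% of all genes. 4 Sertoli cell markers summed to 50.4 and 36.7 CPM with LARP7, against 78.9 and 71.8 CPM with IgG, and 1 of them was lower, or 4 by library totals. 4 Leydig cell markers summed to 34.82 and 36.21 CPM with LARP7, against 36.8 and 42.55 CPM with IgG, and none was called. 4 peritubular and vascular markers summed to 16.92 and 12.87 CPM with LARP7, against 15.39 and 6.997 CPM with IgG. The 2 of them that were tested passed in neither direction. By library totals Cyp17a1, Star and Insl3 of the Leydig list and Acta2 of the peritubular list were lower. The 5 blood markers were not tested. The part of these cell markers in the results below was not tested. In these bulk precipitates a level is an amount recovered with an antibody, so neither cell number nor RNA per cell can be read from it.

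79 of the 110 models held enough counts to be tested, and the remaining 31 were not tested. A model could pass that filter through its LARP7 counts alone, so the following counts describe the tested models and do not measure how many of all 110 differ. By edgeR's quasi-likelihood test, adjusted over the 12234 genes tested, 64 models were higher with LARP7 and 1 was lower at an adjusted p under 0.05, and 14 passed in neither direction. Of all genes tested, 14.5% were called higher and 9.69% lower. The median log2 fold change was 2.95 over the tested models, against -0.05 over all genes tested, and its quartiles over the models were 2.25 and 3.79. It is also 2.95 when the 3 tested models with a group at 0 are set at their bound.

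The size of these changes depends on the scaling. With library totals in place of TMM, 44 models were higher and 1 was lower, against a background of 3.95% of all genes higher and 47.1% lower, and the median log2 fold change was 1.53 for the models and -1.47 for all genes. On log2(TPM + 1) with limma, 0 models passed in either direction, against 0.0409% of all genes higher and 0.155% lower, and the medians were 0.51 and -0.29. In that test 55 of the 79 models had a log2 fold change above 0.

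Other fits over the whole table gave other counts for both the models and all genes. DESeq2 called 66 models higher, against 14.0% of all genes higher and 5.96% lower. Without the low-count filter 81 were higher, against 7.56% of all genes higher and 5.13% lower. Limma on log2(TPM + 0.1) called 9 models higher and 1 lower, against 0.907% of all genes higher and 55.8% lower. With a replicate block 68 were higher, against 17.1% of all genes higher and 11.5% lower.

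Leaving out one library gave between 43 and 89 models called higher. Without the second LARP7 library 43 models were higher, against 4.62% of all genes higher and 1.38% lower. Without the first LARP7 library 66 were higher (9.70% of all genes higher, 6.29% lower). Without the first IgG library 73 were higher (12.2% of all genes higher, 6.28% lower), and without the second IgG library 89 were higher (15.2% of all genes higher, 6.32% lower). The filter passes a different number of models in each of these fits.

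Groups whose libraries did not overlap were counted next. Both LARP7 libraries were above both IgG libraries for 70 of the 79 tested models in TMM-scaled CPM (32.9% of all genes), for 55 by library totals (9.70% of all genes) and for 23 in TPM (1.51% of all genes). Both LARP7 libraries were below both IgG libraries for 1, 2 and 9 models by the same 3 measures, against 35.5%, 63.9% and 75.0% of all genes. 83 of the 110 models were higher in the second LARP7 library than in the first by CPM. With 2 libraries per group the smallest p of an exact two-sided permutation test is 0.333, so single values rest on the fit across all genes.

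**Figure D1:**
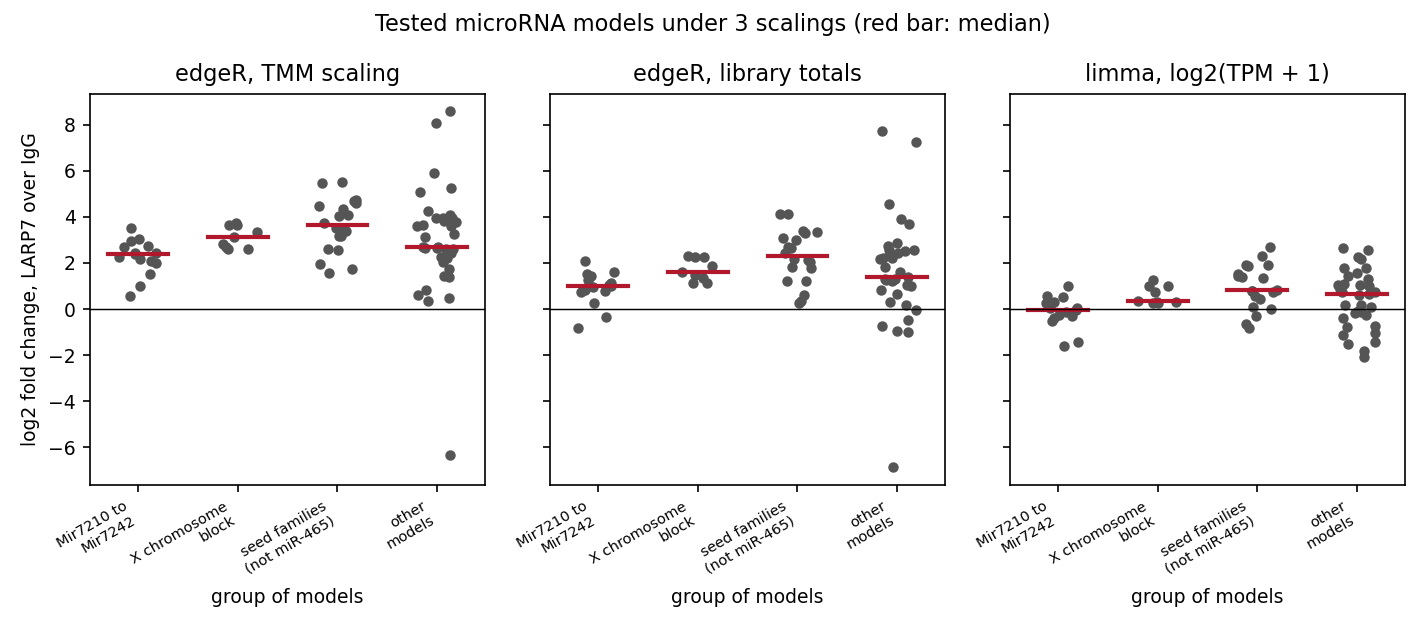
Log2 fold changes, LARP7 over IgG, of the 79 tested microRNA models, with one point per model and a red bar at the median of each group of models. The 3 panels use edgeR with TMM scaling, edgeR with library totals and limma on log2(TPM + 1). The median over all models was 2.95, 1.53 and 0.51 from left to right.

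The let-7 family, whose maturation Lin28 proteins hold back in immature cells, had the smallest summed difference of the 3 families named here first. Its 9 models summed to 97.8 and 150.2 CPM with LARP7, against 19.5 and 51.3 CPM with IgG. The libraries did not overlap in CPM, where the sum was 3.50 times as high with LARP7 (log2 1.81). By library totals the libraries overlapped and the log2 ratio was 0.51, and with the deposited TPM it was -0.47, so the direction depends on the unit.

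Mirlet7b carried most of the let-7 counts. It held 59.2 and 101.0 CPM with LARP7, against 14.7 and 39.1 CPM with IgG. Both LARP7 libraries were above both IgG libraries, but the log2 fold change of 1.58 ± 0.57 (SE) did not pass the test (edgeR adjusted p = 0.0643). It passed without the filter on low counts (edgeR adjusted p = 0.0248) and with DESeq2 (adjusted p = 0.0387). By library totals it did not pass (log2 0.28, edgeR adjusted p = 0.673). The log2 fold change ran from 1.03 without the first IgG library to 2.50 without the second IgG library. Its neighbour Mirlet7c-2 on chromosome 15 held 8.81 and 12.4 CPM with LARP7, against 0.716 and 1.73 CPM with IgG, and was higher (log2 3.19 ± 0.61, edgeR adjusted p = 0.00863). These models lie next to each other on the same strand.

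Mirlet7c-1 (log2 3.15), Mirlet7g (2.60) and Mirlet7i (1.74) were also higher, with edgeR adjusted p of 0.0140, 0.0355 and 0.0483. Each of the 4 calls was lost without at least 1 single library, and only Mirlet7c-2 kept its call by library totals. Without the second LARP7 library the adjusted p was 0.0513 for Mirlet7c-2 and 0.150 for Mirlet7c-1. Mirlet7g and Mirlet7i lost the call without either LARP7 library and without the first IgG library, with adjusted p between 0.0884 and 0.344.

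The other let-7 genes gave no call in the same fit. Mirlet7a-1 held 8.53 and 11.1 CPM with LARP7, against 1.00 and 4.27 CPM with IgG, with an edgeR adjusted p of 0.0534 at a log2 fold change of 1.96. It passed in edgeR without the filter (adjusted p = 0.0142). It did not pass with DESeq2 (adjusted p = 0.0678) or by library totals (log2 0.63, edgeR adjusted p = 0.446). The log2 fold change ran from 1.19 without the first IgG library to 3.30 without the second IgG library. Mirlet7d and Mirlet7f-1, which share a cluster with it on chromosome 13, and the X-linked Mirlet7f-2 were not tested. Mirlet7d had 1.03 and 4.79 CPM with LARP7, against 0.382 and 0.155 CPM with IgG. In TMM-scaled CPM both LARP7 libraries were above both IgG libraries for each of these 3 models, against 32.9% of all genes tested. In TPM the libraries overlapped for all 3, with Mirlet7d at 0.33 and 3.06 with LARP7, against 1.45 and 0.30 with IgG.

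The miR-30 family had 5 models and summed to 222 and 622 CPM with LARP7, against 30.6 and 33.4 CPM with IgG. The lower LARP7 library lay far above both IgG libraries, and the sum was 13.2 times as high with LARP7 (log2 3.72). The log2 ratio was 2.38 by library totals and 1.45 in TPM, where the second LARP7 library alone lay above IgG.

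Mir30d was the most abundant of the family, at 122 and 285 CPM with LARP7, against 17.9 and 21.0 CPM with IgG. Its log2 fold change was 3.39 ± 0.62 (edgeR adjusted p = 0.00771). Mir30a, on chromosome 1, held 61.6 and 164 CPM with LARP7, against 7.42 and 6.17 CPM with IgG (log2 4.05 ± 0.61, edgeR adjusted p = 0.00447). Mir30c-2, on the same chromosome, held 13.0 and 58.6 CPM with LARP7, against 0.781 and 0.791 CPM with IgG, the largest change of the family (log2 5.48 ± 0.81, edgeR adjusted p = 0.00630). Mir30e held 26.2 and 106.7 CPM with LARP7, against 4.53 and 5.38 CPM with IgG (log2 3.75 ± 0.67, edgeR adjusted p = 0.00837).

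All 4 of these calls held without any one library and by library totals. In each of them the second LARP7 library was more than 2 times the first. Mir30c-1 shares its mature strand with Mir30c-2 and was not tested. It was listed at 0 in the first LARP7 library, had 7.23 CPM in the second, and was listed at 0 in both IgG libraries. The posterior SD that RSEM gave for its count was 0.975 of the count, so that the split of reads between the miR-30c genes is uncertain.

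The miR-103 family, found within introns of pantothenate kinase genes, had the highest fold of the 3. Its models summed to 52.5 and 119 CPM with LARP7, against 1.41 and 5.06 CPM with IgG. The sum was 26.5 times as high with LARP7 (log2 4.73), with log2 ratios of 3.47 by library totals and 2.62 in TPM. All 3 measures kept both LARP7 libraries above both IgG libraries.

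Mir103-1, in Pank3, held 27.7 and 93.6 CPM with LARP7, against 1.23 and 3.99 CPM with IgG (log2 4.61 ± 0.79, edgeR adjusted p = 0.00972). Mir103-2, in Pank2, held 24.7 and 25.1 CPM with LARP7, against 0.173 and 1.07 CPM with IgG (log2 5.51 ± 0.71, edgeR adjusted p = 0.00268). The LARP7 libraries were close to each other for Mir103-2 and far apart for Mir103-1. The posterior SD was 0.170 of the count for Mir103-2 and 0.0654 for Mir103-1, whose hairpins are shown above. Both calls held without any one library.

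**Figure D2:**
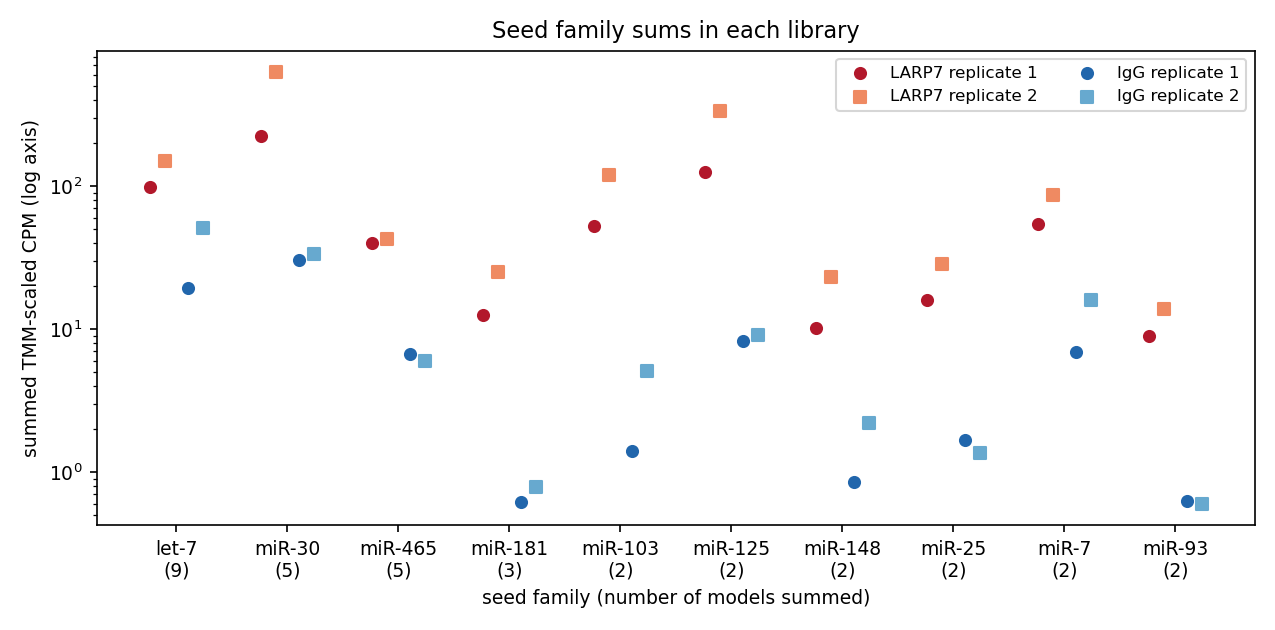
Summed TMM-scaled CPM (log axis) of the 10 seed families in each library, with LARP7 replicates in red and orange and IgG replicates in blue, and the number of models summed in brackets. In this unit both LARP7 libraries lay above both IgG libraries in every family, against 32.9% of single genes tested. The gap was smallest for let-7, whose libraries overlapped by library totals. In TPM the libraries overlapped for let-7, miR-30, miR-465, miR-148, miR-25 and miR-7.

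34 of the 110 models fell into 10 families with a shared seed. 24 of these were tested and 22 were called higher, against 14.5% of all genes tested, the exceptions being Mirlet7b and Mirlet7a-1. The miR-125 pair summed to 125 and 333 CPM with LARP7, against 8.26 and 9.03 CPM with IgG, a log2 ratio of 4.73. Most of it was Mir351, a rodent microRNA of an X-linked cluster, at 118 and 314 CPM with LARP7, against 7.89 and 8.39 CPM with IgG (log2 4.73 ± 0.68, edgeR adjusted p = 0.00363).

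Mir125a, from a cluster inside the Spaca6 gene, held 7.24 and 18.3 CPM with LARP7, against 0.367 and 0.646 CPM with IgG (log2 4.68 ± 0.69, edgeR adjusted p = 0.00389). The pair thus had similar folds at levels that differed in CPM. The miR-181 family, with 3 models, summed to 12.5 and 25.2 CPM with LARP7, against 0.625 and 0.791 CPM with IgG (log2 4.73), although only Mir181b-2 was tested and called.

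Mir25, Mir93 and Mir106b form a cluster in an intron of Mcm7, a replication helicase gene. Together they held 23.3 and 37.2 CPM with LARP7, against 1.76 and 1.64 CPM with IgG. Mir25 and Mir93 were higher (log2 4.08 and 4.35, edgeR adjusted p of 0.00251 and 0.00528), and Mir106b was not tested. The miR-7 pair had a log2 ratio of 2.62 and the miR-148 pair of 3.43.

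The X chromosome carried 19 of the models. 11 of them lie between positions 66780758 and 66839125, a block of microRNA genes known for expression in testis. They summed to 427 and 484 CPM with LARP7, against 44.9 and 42.7 CPM with IgG. The replicates of this sum, most of it from Mir470, were close in both groups, and the groups were far apart in CPM. Single models could vary more between the LARP7 libraries, such as Mir881 at 28.1 and 5.05 CPM and Mir871 at 49.9 and 104.9 CPM. 9 of the 11 were tested and all 9 were called higher, with log2 fold changes from 2.62 to 3.75, where 14.5% of all genes were called higher. By library totals 5 of them were called higher, against 3.95% of all genes.

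Mir470, the most abundant of the block, is shown by its hairpin with the mature arms in capitals.
Mir470: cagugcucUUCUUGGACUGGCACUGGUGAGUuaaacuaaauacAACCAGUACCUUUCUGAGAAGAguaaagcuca
It held 289 and 296 CPM with LARP7, against 25 and 18.35 CPM with IgG (log2 3.75 ± 0.60, edgeR adjusted p = 0.00485). In TPM it was at 232 and 431 with LARP7, against 204 and 82.9 with IgG, so the groups were apart there too.

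5 models of the block belong to the miR-465 family, which summed to 40.3 and 42.5 CPM with LARP7, against 6.72 and 6.01 CPM with IgG (log2 2.70). Mir465b-1 and Mir465b-2 have identical hairpins and identical counts, and so do Mir465c-1 and Mir465c-2. Their posterior SDs were between 0.562 and 0.569 of the count. Each pair is therefore one measurement, and their 4 calls (log2 2.62 for the b pair and 3.64 for the c pair) stand for 2. The b pair lost its call by library totals (edgeR adjusted p = 0.144).

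A large part of the counts lay in models numbered Mir7210 to Mir7242. This grouping by number was made after the values were seen. 16 models of this range held 43.0% of all counts of the 110 models and summed to 1372 and 1965 CPM with LARP7, against 221 and 399 CPM with IgG. 11 of the 15 tested were called higher, against 14.5% of all genes, and 4 by library totals, against 3.95%. Their log2 fold changes ran from 0.56 to 3.51.

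Mir7222 and Mir7230 show how their annotated hairpins are built.
Mir7222: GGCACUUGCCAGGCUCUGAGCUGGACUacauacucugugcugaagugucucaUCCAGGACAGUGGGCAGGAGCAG
Mir7230: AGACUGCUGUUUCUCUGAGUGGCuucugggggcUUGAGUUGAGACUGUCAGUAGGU
The mature arms in capitals reach both ends of the hairpin entry, as they do in 12 of the 15 models of this range with an entry, against 1 of 73 models outside this range and outside the X-linked block. These models were short, with a median of 61.5 nt, against 81.5 nt over all 110. The models of the conserved families above have flanking bases on both sides.

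Mir7222, on chromosome 2, held 394 and 329.8 CPM with LARP7, against 44.8 and 42.9 CPM with IgG (log2 3.04 ± 0.59, edgeR adjusted p = 0.00917). Mir7214, on chromosome 17, held 269 and 226 CPM with LARP7, against 35.2 and 42.4 CPM with IgG (log2 2.68 ± 0.56, edgeR adjusted p = 0.0112). Mir7241 was higher at log2 2.44 and Mir7230 at 2.95 (edgeR adjusted p of 0.0126 and 0.00645). By library totals Mir7214 and Mir7241 lost the call (edgeR adjusted p of 0.0512 and 0.102), while Mir7222 and Mir7230 kept it.

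Mir7210 had the most counts of all 110 models and varied most between replicates among the abundant ones. It held 159 and 542 CPM with LARP7, against 29.3 and 148 CPM with IgG. The first LARP7 library lay just above the second IgG library, and the difference did not pass the test (log2 1.99 ± 0.88, edgeR adjusted p = 0.127). It passed with DESeq2 (adjusted p = 0.0415) and in edgeR without the filter on low counts (adjusted p = 0.0153). It did not pass by library totals (log2 0.77, edgeR adjusted p = 0.274). The log2 fold change ran from 0.84 without the second LARP7 library to 3.62 without the second IgG library. In both groups the second replicate was the higher one.

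**Figure D3:**
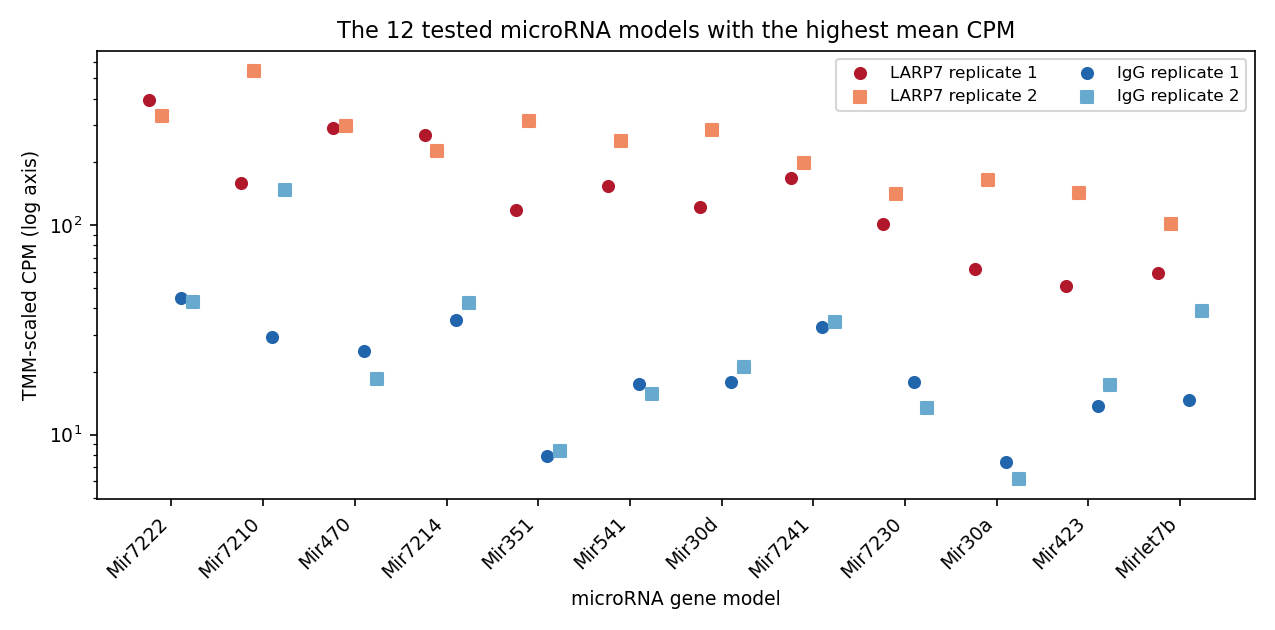
TMM-scaled CPM (log axis) of the 12 tested models with the highest mean, with LARP7 replicates in red and orange and IgG replicates in blue. In this unit both LARP7 libraries lay above both IgG libraries for all 12, against 32.9% of all genes tested. The gap was small for Mir7210 and Mirlet7b. The 12 were ranked by a mean that includes the LARP7 libraries. In TPM the groups stayed apart only for Mir470 and Mir351.

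Among the other abundant models was Mir541, of the imprinted Dlk1-Dio3 domain on chromosome 12.
Mir541: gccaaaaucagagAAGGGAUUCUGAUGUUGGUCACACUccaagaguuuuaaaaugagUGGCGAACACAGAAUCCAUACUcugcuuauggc
It held 154 and 253 CPM with LARP7, against 17.4 and 15.7 CPM with IgG (log2 3.62 ± 0.58, edgeR adjusted p = 0.00485). Mir412, of the same cluster, held 8.06 and 8.26 CPM with LARP7, against 0.156 and 2.85 CPM with IgG, and did not pass the test (log2 2.59 ± 1.01, edgeR adjusted p = 0.0971).

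Mir423 held 50.9 and 141 CPM with LARP7, against 13.7 and 17.2 CPM with IgG (log2 2.64 ± 0.58, edgeR adjusted p = 0.0133). On log2(TPM + 1) its log2 fold change was -0.12, so its direction depends on the unit. Mir425 and Mir191 lie in one cluster in Dalrd3. Mir425 was higher (log2 2.68, edgeR adjusted p = 0.00746), while Mir191, at nearly the same log2 fold change of 2.65, did not pass (SE 0.97, edgeR adjusted p = 0.0993).

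The largest changes were in models near 0 with IgG. Mir5128, in an intron of Strbp, held 30 and 27 counts with LARP7, against 0 and 0 with IgG. It was at least 44.3-fold higher, where the bound sets 3 counts over both IgG libraries in place of 0 (edgeR adjusted p = 0.00313). Mir671 held 15.9 and 23.6 counts with LARP7, against 0 and 0 with IgG, and was at least 30.6-fold higher (edgeR adjusted p = 0.00525). Without the second LARP7 library the Mir671 call was lost (edgeR adjusted p = 0.0530).

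Mir128-1, in an intron of R3hdm1, held 22 and 11 counts with LARP7, against 1 and 0 with IgG. The ratio of the summed counts after scaling was 76.9, with a 95% counting interval from 12.9 to 3130 that leaves out the spread between libraries (edgeR adjusted p = 0.00863). It was not tested without the first LARP7 library.

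Mir26a-2, in an intron of Ctdsp2, held 6.86 and 25.2 CPM with LARP7, against 0.547 and 0.158 CPM with IgG (log2 5.27 ± 0.82, edgeR adjusted p = 0.00514). Mir182, from a cluster best known in sensory cells, held 14.03 and 23.6 CPM with LARP7, against 0.781 and 0.158 CPM with IgG (log2 5.09 ± 0.66, edgeR adjusted p = 0.00251). Both calls held without any one library. The other models among the 10 largest changes were Mir30c-2, Mir103-1, Mir103-2, Mir351 and Mir125a, given above.

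A few further models were picked for their known biology after their values were seen. Mir320, whose precursor is known to form without Drosha, held 34.8 and 53.0 CPM with LARP7, against 3.98 and 2.06 CPM with IgG (log2 3.81 ± 0.49, edgeR adjusted p = 0.00251). Mir877, an intron of Abcf1 that is spliced out as a hairpin, held 7.28 and 10.1 CPM with LARP7, against 1.48 and 2.85 CPM with IgG (log2 2.04 ± 0.56, edgeR adjusted p = 0.0269). Mir222, an X-linked microRNA known from cell cycle control, held 34.6 and 72.8 CPM with LARP7, against 2.50 and 3.96 CPM with IgG (log2 4.08 ± 0.53, edgeR adjusted p = 0.00262). The models just named were higher under TMM, and Mir877 did not pass by library totals. Single models picked in this way do not stand for a route to a microRNA.

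9 tested models had both LARP7 libraries below both IgG libraries in TPM, as did 75.0% of all genes tested. They were Mir3096, Mir7218, Mir1843b, Mir3068, Mir1839, Mirlet7i, Mir7068, Mir7232 and Mir6516. Mir3096 shows the conflict between units: it held 26.0 and 17.9 CPM with LARP7, against 7.04 and 9.87 CPM with IgG, and was called higher under TMM (log2 1.39 ± 0.42, edgeR adjusted p = 0.0366). Its log2 fold change was -0.03 by library totals and -1.04 on log2(TPM + 1), and neither passed the test.

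Mir6516, in the small nucleolar RNA host gene Snhg20, was the one model called lower. It held 0 and 0 counts with LARP7, against 11.9 and 12.6 counts with IgG, and was at least 3.51-fold lower (edgeR adjusted p = 0.0331). The call was lost without either LARP7 library, with adjusted p of 0.238 and 0.333, and the model was not tested without either IgG library. It was also lost without the low-count filter (0.0914). The posterior SD was 0.222 of the count.

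8 tested models overlapped between the groups in CPM. Of all genes tested, 32.9% had both LARP7 libraries above and 35.5% had both below, and the rest overlapped. Among the 8 were 3 whose model reaches beyond a RefSeq hairpin or lies inside another small RNA. Others of the 8, such as Mir7218 and Mir7233, have a model as long as their hairpin. The 3 were picked after their values were seen, and the part of annotation in the overlap was not tested. Mir1843b lies inside Scarna3a, a guide RNA of small nuclear RNA modification, and held 8.41 and 14.9 CPM with LARP7, against 4.38 and 14.1 CPM with IgG (log2 0.36 ± 0.58, edgeR adjusted p = 0.671). Mir3068 is 136 nt long against 79 nt for its hairpin, and held 5.20 and 6.43 CPM with LARP7, against 5.70 and 2.55 CPM with IgG (log2 0.47 ± 0.56, edgeR adjusted p = 0.560).

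Mir1839, of 127 nt against 73 nt for its hairpin, changed by 0.83 ± 0.67 on the log2 scale, which did not pass (edgeR adjusted p = 0.373). In Mir3068 and Mir1839 counts from the microRNA and from the rest of the model cannot be told apart. Scarna3a, around Mir1843b, has a model of its own. It was higher under TMM (log2 2.79, edgeR adjusted p = 0.0152) and was not called by library totals (log2 1.28). Across the 71 tested models with a hairpin entry, the log2 fold change had a Pearson correlation of 0.01 with hairpin length and of -0.02 with its GC content, given as a description since the models share libraries.

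Host genes gave a comparison within the same fit. 53 models lie in a RefSeq gene on the same strand, and 28 such hosts were tested, with a median log2 fold change of -0.06. 1 host was called higher and 2 lower, against 14.5% and 9.69% of all genes tested. By library totals 1 host was higher and 15 were lower, against 3.95% and 47.1% of all genes. In the 24 pairs where both were tested, which hold 21 hosts, the microRNA model had the larger log2 fold change in 22. Of the 79 tested models 78 were above 0, and the median over all genes tested was -0.05. Most genes set beside these models would therefore give such a count, and it says little about hosts in particular. The median was 3.36 for the microRNA models of these pairs.

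Of the 20 pairs whose microRNA model was called higher, the host was called higher in 1 and lower in 2, and passed in neither direction in 17. By library totals the host was higher in 1 of these pairs, lower in 14 and passed in neither direction in 5. Spaca6, a gene for a sperm protein needed in fertilisation, held 0.816 and 3.04 CPM with LARP7, against 5.55 and 12.2 CPM with IgG (log2 -2.19, edgeR adjusted p = 0.0430), while its Mir125a was higher. R3hdm1 was lower at log2 -1.42 (edgeR adjusted p = 0.0330), while its Mir128-1 was higher. Ctdsp2 held 87.3 and 181 CPM with LARP7, against 19.3 and 17.2 CPM with IgG (log2 2.88, edgeR adjusted p = 0.00908), and its Mir26a-2 was higher as well. The difference between a model and its host was not tested. Host counts come from longer models in libraries selected for short RNA.

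**Figure D4:**
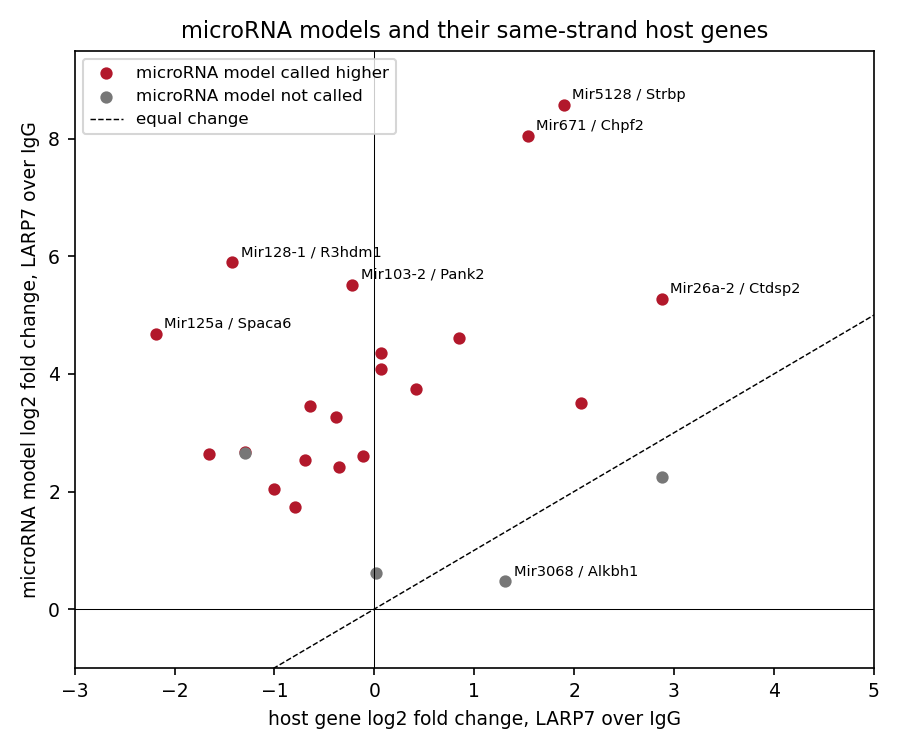
Log2 fold change, LARP7 over IgG, of each tested microRNA model (vertical axis) against its same-strand host gene (horizontal axis) in 24 pairs, with red points for models called higher, grey points for models not called and a dashed line at equal change. 22 points lie above the line, and host values run from -2.19 to 2.88.

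The protein-coding genes of the microRNA pathway were read from the same fit, in a list of 24 genes that were all tested. 6 were higher with LARP7 and 3 were lower, against 14.5% and 9.69% of all genes tested, and the median log2 fold change was -0.31, against -0.05 over all genes. By library totals 1 was higher and 14 were lower, against 3.95% and 47.1% of all genes. The genes of the nuclear steps, Drosha and Dgcr8, passed in neither direction under TMM.

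The 4 Argonaute genes were all among the 6 higher ones, but their levels were far apart. Mean CPM with LARP7 was 2774 for Ago2, against 36.2 for Ago1, 41.9 for Ago3 and 17.5 for Ago4. Counts per model in libraries selected for short RNA do not show which part of a gene the reads came from. Whether the Ago2 counts came from its mRNA was not tested. Ago2, which encodes the slicing Argonaute, held 2367 and 3180 CPM with LARP7, against 397 and 629 CPM with IgG (log2 2.44 ± 0.71, edgeR adjusted p = 0.0325). The call was lost without the first LARP7 library (0.113), the second LARP7 library (0.215) or the first IgG library (0.0598). Ago1 (log2 2.54, edgeR adjusted p = 0.0101) and Ago3 (2.38, 0.00791) kept the call without any one library, and Ago1 also kept it by library totals.

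Ago4 was higher at log2 1.30 (edgeR adjusted p = 0.0487), but at -0.12 by library totals. Its call was lost without the second LARP7 library (0.272), the first IgG library (0.106) or the second IgG library (0.193). Lin28a, which binds let-7 precursors, was higher at log2 2.34 (edgeR adjusted p = 0.0260), and lost the call without the second LARP7 library (0.463). Adar, an RNA editing enzyme, was higher at log2 2.0 (edgeR adjusted p = 0.0292), and lost the call without either LARP7 library (0.109 and 0.171) or the second IgG library (0.0516).

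Ran, the export GTPase, was lower at log2 -1.33 (edgeR adjusted p = 0.0330), Tarbp2, a Dicer partner, at -1.95 (0.0213) and Dis3l2, an exonuclease that degrades uridylated let-7 precursors, at -2.29 (0.0269). Without the second LARP7 library the adjusted p was 0.147 for Ran, 0.125 for Tarbp2 and 0.112 for Dis3l2. Ran also lost the call without the first (0.150) or second (0.0859) IgG library, and Dis3l2 without the first LARP7 (0.107) or second IgG library (0.0558).

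The threshold of 20 summed counts lay in a dense part of the list. Just inside it, with fewer than 25 counts, were Mir185, Mir9-3, Mir3107, Mir181a-2, Mirlet7f-1, Mirlet7f-2, Mir375, Mir328, Mir676, Mir301, Mir702 and Mir6516. Just outside it, with 15 to under 20 counts, were 10 models, Mir200c, Mir192, Mir221, Mirlet7a-2, Mir27b, Mir139, Mir147, Mir1198, Mir501 and a second Mir677 model. Mir185 held 6 and 17 counts with LARP7, against 0 and 0 with IgG, and Mir200c held 9 and 8 counts with LARP7, against 0 and 0 with IgG. 5 of the 110 models were listed at 0 in the first LARP7 library and 6 in both IgG libraries. 63 of the 110 had a posterior SD of 0, so RSEM split no reads of theirs with another model.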

How the data were processed

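RNA from mouse testis was immunoprecipitated with anti-LARP7 in 2 libraries and with IgG in 2. Per the submitters' processing notes, cutadapt, Bowtie2, RSEM and the build mm10 were used, with versions and settings not given in the sources used here. The deposited files give, per gene model, an expected count, in which RSEM splits multiply mapping reads, and the authors' TPM. Other deposited values per model, used as described, were the posterior SD of the count, the length and the effective length.

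Expected counts were rounded and tested over the whole table with edgeR 4.0.16 in R 4.3.3 (filterByExpr, TMM, robust quasi-likelihood fit, two-sided, Benjamini-Hochberg over the 12234 genes tested, call at 0.05). limma 3.58.1 on log2(TPM + 1) and DESeq2 1.42.0 were alternatives. A log2 fold change on log2(TPM + 1) understates the change of low genes. Replicates differed by more than counting noise, since chi-square over its degrees of freedom was 124 for LARP7 and 53.4 for IgG. Library totals ran from 4411271 to 6994514 counts. Counting intervals and the floor of 3 counts cover counting error only.

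Named genes were the 12 tested models with the highest mean CPM and those called lower or below 0. With them were the 10 models with the largest log2 fold change among those called higher. All let-7, miR-30 and miR-103 models, models at the threshold and pathway genes that were called were also named. So were the 5 models with the largest posterior SD over count. Models named otherwise were chosen after their values were seen. Seed families share bases 2 to 8 of a mature strand in RefSeq. Coordinates, hosts and sequences are RefSeq's on GRCm38.p6, whose gene table matched 109 of the 110 models. The models and lists were chosen with earlier results of these data known. The fit was tested on simulated data.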

Additional observations from a re-analysis of the deposited data

How the results depend on the processing

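The number of models called higher, 64, was 68 with a replicate block, 0 with limma on log2(TPM + 1), 0 on that scale without a filter and 9 on log2(TPM + 0.1), and ran from 43 to 89 when one library was left out, 43 without the second LARP7 library. It was 60 without the 5 models whose posterior SD was above 0.5 of the count. 38 of the 65 calls held without any one library, 63 held with DESeq2 and 63 with the block. The 1 model called lower, Mir6516, was 0 with DESeq2, without the filter, with limma on log2(TPM + 1), with or without a filter, with the replicate block and in every fit without one library (0 to 0). The median log2 fold change, 2.95, was 1.53 by library totals, 0.51 and 0.55 on log2(TPM + 1) and log2(TPM + 0.1), and 0.59 without a filter on TPM. It was 2.97 with the block and 2.69 to 3.47 without one library.

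The replicate numbers are shared between antibodies. The first LARP7 and first IgG libraries had a correlation of 0.20 in their deviations from the group mean, which does not settle a pairing. With 2 libraries per group the second pair gives the same value by construction. With the replicate block 3 models named without a call passed in edgeR: Mir7210 (log2 2.16, adjusted p = 0.00766), Mirlet7b (1.69, 0.0104) and Mirlet7a-1 (2.15, 0.0214).

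The let-7 sum (log2 1.81) was 0.51 by library totals and -0.47 from sums of TPM, an alternative added after seeing the data, and 1.27 to 2.72 without one library, 2.72 without the second IgG library. The miR-30 sum (3.72) was 2.38 and 1.45 by these measures and 2.80 to 4.27 without one library. The miR-103 sum (4.73) was 3.47 and 2.62, and 4.02 to 5.97. The causes were not tested.

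With limma on log2(TPM + 1), with or without a filter, and on log2(TPM + 0.1), the direction turned for Mir7210 (-0.31, -0.31 and -0.31), Mir423 (-0.12, -0.12 and -0.14), Mirlet7b (-0.84, -0.84 and -0.86), Mirlet7i (-0.65, -0.65 and -0.74), Mirlet7a-1 (-0.29, -0.29 and -0.34), Ago2 (-0.12, -0.12 and -0.18), Ago3 (-0.00051, -0.00051 and -0.02), Ago4 (-0.10, -0.10 and -0.55) and Adar (-0.03, -0.03 and -0.26). Ago4 was also at -0.12 by library totals. Low counts limit the 31 models not tested.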
